A study of Homo sapiens with 12 samples.

Results

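The comparison described here sets the RNA 3' ends pulled down with STAU1-FLAG directly against those pulled down with FLAG-GFP, without the inputs. Its members were all poly(A) sites with a mean of at least 10 reads over the 4 pull-down libraries, 18936 of the 640413 sites in the pull-down table. A poly(A) site is the position at which a transcript is cleaved and polyadenylated. The cells were HEK293T, an established human embryonic kidney line, with STAU1 knocked out by paired nicking with a Cas9 nickase. A single knockout clone, C8, was used for both groups, so the STAU1 group and the GFP group shared the knockout. They differed in the protein expressed transiently, STAU1 with a FLAG tag or FLAG-tagged GFP, and each pull-down was made with an anti-FLAG antibody and had 2 replicates. Poly(A)+ RNA was sequenced by 3'READS+, which reads the last stretch of an RNA before its tail. Replicates carry the numbers 1 and 2 in the labels, with no word on separate cultures. The p-values thus cover the spread between these libraries alone, which may be technical.

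STAU1 (Staufen1) binds double-stranded RNA, and many of its known binding sites are stems in 3' untranslated regions, some of them formed by inverted Alu repeats. It is known for moving mRNAs in polarised cells, for acting on their translation, and for Staufen-mediated decay, in which it recruits the helicase UPF1 to an mRNA. GFP is not an RNA-binding protein, and a GFP pull-down serves as the control for RNA recovered with the tag, the antibody and the beads. Most genes have several poly(A) sites, and a transcript that ends at a distal site carries a longer 3' untranslated region.

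The STAU1 libraries held 6212606 and 5727812 reads and the GFP libraries 1291888 and 1245270. Sites tested took 91.4 to 92.2% of the reads of a library, and mitochondrial sites took 5.07 to 5.68%. Between the replicates of one pull-down the median absolute log2 difference was 0.284 for STAU1 and 0.314 for GFP, over 6790 abundant sites. Levels are CPM (counts scaled to a common library size by TMM, over tested sites). They are shares of a library, so the total amount of RNA recovered was not measured. Sites are given by hg19 chromosome, strand and position. A gene is named only where its hg19 end is known, and whether a site lies in an exon, an intron or an untranslated region was not analysed here.

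The STAU1 gene itself was the check of the labels. At a poly(A) site named to it, at chromosome 20, minus strand, position 47732337, the STAU1 pull-down had 114 and 136 reads and the GFP pull-down had 0 and 0. Taking 3 reads as the most that a count of 0 over the GFP group allows, 1.33 CPM, the level was at least 16.5-fold higher with STAU1. A second STAU1 site at 47734604 had 160 and 69 reads against 1 and 0. Whether either position is an annotated end of the gene was not analysed here. The inputs differed in the same way, with 80 and 178 reads at 47732337 in the STAU1 inputs and none in the GFP inputs. The pull-down difference at this gene thus went with a difference between the inputs, and its origin was not tested. At 47734604 the log2 change of 5.38 was 9.37 without GFP IP replicate 1, and without STAU1 IP replicate 1 it was 4.65 and did not pass (Benjamini-Hochberg adjusted p = 0.0770 from edgeR's quasi-likelihood test).

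Of the 18936 sites, 992 were higher with STAU1 (5.24% of those tested) and 902 were lower (4.76%), 10.0% in all. The test was edgeR's quasi-likelihood test, and a site counted where its p, adjusted by Benjamini-Hochberg, was under 0.05. At an unadjusted p under 0.05 the test called 4786 sites. The higher sites had a median log2 change of 1.75, the lower ones -1.27 and all sites tested 0.12, and 852 higher and 620 lower sites passed a 2-fold change. Setting the 91 higher sites that had no GFP read to their lower bound left the median at 1.75. The counts fell to 357 higher and 403 lower when STAU1 IP replicate 1 was left out, to 316 and 322 when STAU1 IP replicate 2 was, and to 579 and 524 when GFP IP replicate 1 was. Of all calls 52.4% were higher, against 47.5% with DESeq2 (823 higher and 910 lower), 47.3% with all 8 libraries in the fit (677 and 755), 63% when libraries were scaled by their totals (1158 higher and 681 lower) and 64.4% with edgeR's filterByExpr in place of the minimum mean (989 and 546).

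**Figure D1:**
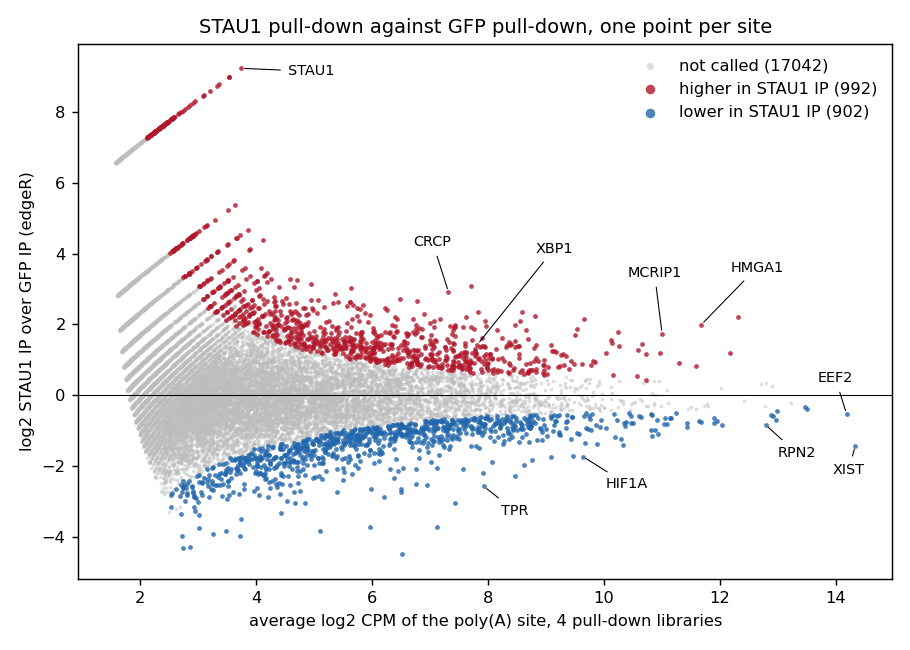
Log2 change of STAU1 IP over GFP IP (vertical axis) against the average log2 CPM of each of the 18936 sites (horizontal axis), with sites called higher in red, lower in blue and not called in grey. The stripes at the upper left are sites with 0, 1, 2 or a few reads in the GFP libraries, whose fitted change depends on the small count that edgeR adds.

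HMGA1 had the smallest p of the nuclear sites that rose. It encodes an architectural chromatin protein of the high mobility group. Its end at chromosome 6, plus strand, position 34214007 had 5028 and 5409 CPM in the STAU1 libraries and 1244 and 1390 in the GFP libraries. The groups were far apart, and both STAU1 libraries lay well above both GFP libraries. The log2 change was 1.99 ± 0.13 (SE; Benjamini-Hochberg adjusted p = 8.84e-08 from edgeR's quasi-likelihood test), and it stayed between 1.91 and 2.11 under all 14 alternatives. In the inputs the same end differed by 0.07 on the log2 scale.

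Other rule-named ends with small p that rose were also abundant. MCRIP1, a regulator downstream of MAP kinase signalling, had 3339 and 2963 CPM with STAU1 against 952.0 and 936.3 with GFP (log2 1.74 ± 0.13, SE). RAB1B, a small GTPase of transport from the endoplasmic reticulum to the Golgi, had 1996 and 1760 CPM against 521 and 566 (log2 1.79 ± 0.15). SHISA5, a membrane protein of the endoplasmic reticulum, had 1090 and 1240 CPM against 325 and 311 (log2 1.87 ± 0.16). In each of these the replicates of a pull-down lay close together. Groups that do not overlap are a condition of the naming rule. ST6GALNAC6, a sialyltransferase of the Golgi, had 1385 and 1228 CPM with STAU1 against 239 and 346 with GFP (log2 2.16 ± 0.18). MRPS16, a protein of the small mitochondrial ribosomal subunit, had 842 and 629 CPM against 158 and 151 (log2 2.25 ± 0.19). These 5 ends had adjusted p-values between 8.82e-07 and 2.11e-06 by edgeR's quasi-likelihood test with Benjamini-Hochberg adjustment, and none lost its call under any alternative.

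The largest increases at abundant sites lay between 2.50 and 3.09 on the log2 scale. At the top was an end that carries no gene name here, at chromosome 9, plus strand, position 33834911, with 405 and 331 CPM in the STAU1 libraries and 49.5 and 36.5 in the GFP libraries (log2 3.09 ± 0.24, SE). GDPD1, a glycerophosphodiester phosphodiesterase, had 70.2 and 97.9 CPM against 12.2 and 8.21 (log2 3.04 ± 0.38). CRCP, a subunit of RNA polymerase III, had 279 and 276 CPM against 41.7 and 31.9 (log2 2.91 ± 0.24). Both STAU1 libraries lay at least 5 times above both GFP libraries at each of these ends, and the replicates of a pull-down differed by much less than that.

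Below them stood genes of mixed function. LIMD1, a LIM-domain scaffold protein, changed by 2.87 ± 0.38 (log2, SE) and RASSF1, a tumour suppressor linked to Ras, by 2.73 ± 0.30. TRMT61A, the catalytic subunit of a tRNA methyltransferase, changed by 2.65 ± 0.28, KLF16, a zinc-finger transcription factor, by 2.63 ± 0.38, and TOP3A, a DNA topoisomerase, by 2.54 ± 0.39. NOP14, a nucleolar protein needed to make the small ribosomal subunit, rose at both of its tested ends, by 2.56 ± 0.32 and 2.15 ± 0.26. FADS2, a fatty acid desaturase, rose by 2.50 ± 0.44, but without STAU1 IP replicate 2 its log2 change was 1.99 and no longer passed (Benjamini-Hochberg adjusted p = 0.0678 from edgeR's quasi-likelihood test). All of these passed the same test with the 4 libraries, with adjusted p-values of at most 0.00181.

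A pair of rule-named ends needs more care. The end at chromosome 11, plus strand, position 8709075 lies downstream of the main RPL27A end, and it had 76.5 and 83.7 CPM with STAU1 but 1.74 and 24.6 with GFP. The GFP replicates were thus far apart, and the log2 change of 2.62 was 1.70 with GFP IP replicate 1 left out and 5.50 with GFP IP replicate 2 left out. It lost its call with DESeq2 (adjusted p = 0.226) and without either STAU1 replicate (Benjamini-Hochberg adjusted p = 0.0682 and 0.0794 from edgeR's quasi-likelihood test). On the mitochondrial plus strand the end at 5900 had 8806 and 7902 CPM with STAU1 against 1727 and 1864 with GFP (log2 2.22 ± 0.12; Benjamini-Hochberg adjusted p = 1.87e-08 from edgeR's quasi-likelihood test). Of all 275 mitochondrial plus-strand sites 9 were higher and 23 lower, with a median of -0.42, and without GFP IP replicate 2 15 were higher and 17 lower, with a median of -0.08.

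**Figure D2:**
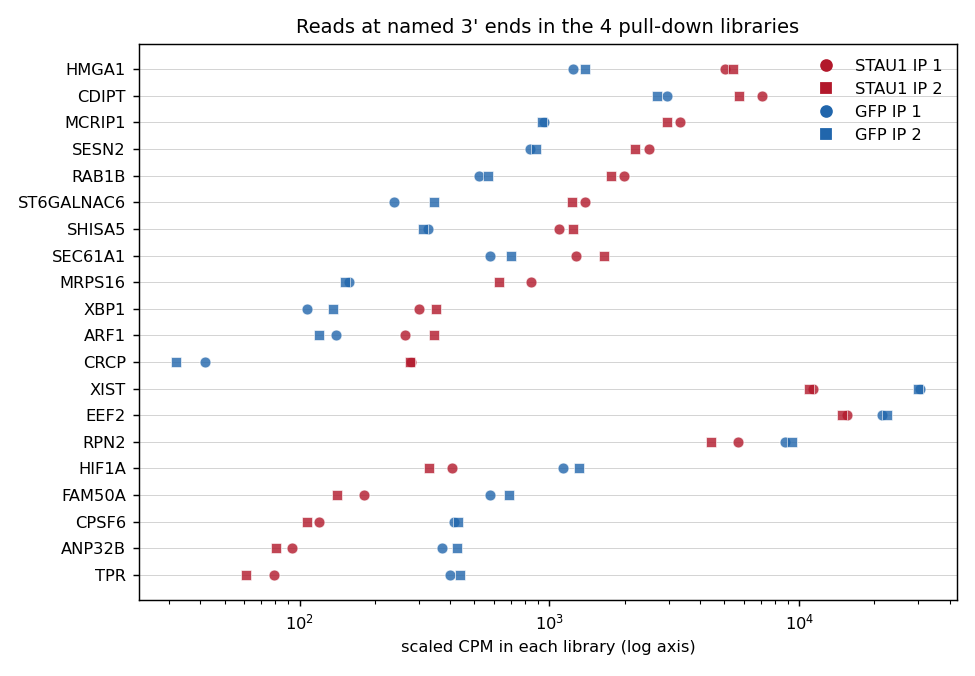
Scaled CPM on a log axis at the most abundant named end of 20 genes, with STAU1 IP replicates in red and GFP IP replicates in blue (circles for replicate 1, squares for replicate 2). The 12 upper genes have both STAU1 libraries to the right of both GFP libraries, and the 8 lower genes, from XIST to TPR, have the reverse order.

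Known Staufen targets from earlier work were next looked at as a list. Of its 10 genes 5 had a named and tested end, 3 of these rose and none fell, and the median log2 change was 1.24 against 0.12 over all sites tested. Over all sites tested 5.24% were higher and 4.76% lower. Of the 4195 sites with an average log2 CPM of at least 5, 534 were higher. The ends proposed for JUN (log2 -0.54) and SLC7A11 (log2 0.02) were tested and did not pass. They are not counted, because their names failed the check of spacing to neighbouring ends. XBP1, the transcription factor of the unfolded protein response, had 300.0 and 352 CPM with STAU1 and 107 and 136 with GFP at its end at chromosome 22, minus strand, position 29190549. The change was 1.43 ± 0.21 (log2, SE; Benjamini-Hochberg adjusted p = 0.000344 from edgeR's quasi-likelihood test), while its STAU1 input lay below the GFP input by -0.48. ARF1, a GTPase of Golgi transport and a long-studied target of Staufen-mediated decay, had 265 and 346 CPM against 140 and 119 (log2 1.24 ± 0.21). PPP2R1A, the scaffold subunit of protein phosphatase 2A, had 677 and 903 CPM against 257 and 405 (log2 1.26 ± 0.21). In all 3 genes the groups did not overlap, which also held for all 992 higher sites and for 10652 of the 18936 tested. CDKN1A, the cell cycle inhibitor p21, had 366 and 421 CPM against 299 and 241, a log2 change of 0.54 ± 0.18 that did not pass (Benjamini-Hochberg adjusted p = 0.0714 from edgeR's quasi-likelihood test). PAICS, an enzyme of purine synthesis, had 10.0 and 4.76 CPM against 5.21 and 3.65, too few reads to tell the groups apart. With DESeq2, library totals or filterByExpr 4 of the 5 passed.

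Of the high mobility group proteins, 4 of 7 genes had a named and tested end, and HMGA1 alone of these passed. Over all sites tested 5.24% were higher and 4.76% lower. The ends proposed for HMGN1 and HMGB2 were tested, but their names failed the check of spacing to neighbouring ends and are not counted. That of HMGN1 was lower (log2 -0.67; Benjamini-Hochberg adjusted p = 0.0377 from edgeR's quasi-likelihood test), and that of HMGB2 did not pass (log2 -0.16). HMGB3 had a log2 change of 0.79 ± 0.37 (SE), HMGN4 of 0.53 ± 0.37 and HMGB1 of -0.21 ± 0.28.

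The lipid and sterol enzymes went both ways. Of 10 genes 3 rose and 1 fell, beside 5.24% higher and 4.76% lower over all sites tested, and the list median was -0.02. The 3 that rose were desaturases, enzymes that place double bonds in fatty acids. SCD had 461 and 546 CPM with STAU1 against 196 and 195 with GFP (log2 1.36 ± 0.18, SE). FADS1 had 10.2 and 31.7 CPM against 2.61 and 2.74 (log2 2.95 ± 0.74), with STAU1 replicates that differed by more than the lower of them, and FADS2 is described above. Without STAU1 IP replicate 2 both FADS1 (log2 1.90) and FADS2 lost their calls, which left SCD, and FADS1 was also not called with a minimum of 5 reads. SQLE, the squalene epoxidase of cholesterol synthesis, had 121 and 96.0 CPM with STAU1 against 266 and 156 with GFP (log2 -0.96 ± 0.25). Its call was lost with filterByExpr, with a minimum of 5 reads and without GFP IP replicate 1 (log2 -0.52), STAU1 IP replicate 1 (-1.18) or STAU1 IP replicate 2 (-0.82). The other 6 did not pass, among them FASN (log2 -0.55), FDFT1 (-0.91), INSIG1 (0.22) and HMGCS1 (0.29).

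Among 14 genes of the endoplasmic reticulum, 1 rose and 2 fell, with a median of 0.04, beside 5.24% higher and 4.76% lower over all sites tested. SEC61A1, the pore of the protein translocation channel, had 1273 and 1652 CPM with STAU1 against 578 and 703 with GFP (log2 1.19 ± 0.16, SE; Benjamini-Hochberg adjusted p = 0.000222 from edgeR's quasi-likelihood test). RPN2, a subunit of the oligosaccharyltransferase, had 5696 and 4424 CPM against 8807 and 9327 (log2 -0.84 ± 0.12). HSP90B1, a chaperone of the same compartment, had 168 and 172 CPM against 322 and 324 (log2 -0.93 ± 0.18). The other 11 genes, among them HSPA5, CALR, CANX and P4HB, had changes between -0.65 and 0.63 that did not pass.

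Genes of the translation machinery were mostly at or below the level in the GFP pull-down. Of 19 ribosomal protein genes tested, 15 had a negative log2 change, 3 fell, 1 rose, and the median was -0.34. Over all sites tested 4.76% were lower. Of the 4195 sites with an average log2 CPM of at least 5, as most of these ends had, 613 were lower. The number of calls thus does not set these genes apart from other abundant ends. Among those that fell were RPL13 and RPL8, by -0.45 ± 0.12 and -0.34 ± 0.10 (log2, SE), and RPL13A rose by 0.93 ± 0.21. These calls were not stable: of 14 alternatives RPL8 lost its call in 10, RPL13 in 8 and RPL13A in 2, and without GFP IP replicate 1 none of the large-subunit genes was called. Leaving out any one library ended the call of RPL8, and that of RPL13 ended without each library but STAU1 IP replicate 1, with a log2 change of -0.29 without STAU1 IP replicate 2. RPL13A was not called without GFP IP replicate 1 or STAU1 IP replicate 2. With library totals or filterByExpr the medians of the large-subunit and small-subunit lists moved from -0.44 to -0.34 or -0.32 and from -0.25 to -0.15 or -0.13. Other settings raised the counts: with a minimum mean of 30 reads or the replicate block, 5 of 9 large-subunit genes were lower, against 2 with the main settings. Of 10 translation factors 2 fell and none rose, with a median of -0.23: EEF2, the elongation factor that moves the ribosome along the mRNA, had 15542 and 14843 CPM against 21503 and 22526 (log2 -0.54 ± 0.09), and EEF1D changed by -0.79 ± 0.12. Without GFP IP replicate 2 EEF2 did not pass (log2 -0.50, edgeR adjusted p = 0.0534). Many of these genes have near-identical processed pseudogenes; how reads with several matches were counted is not known from the sources used here, and its part in these levels was not tested. The end used for EEF1A1 had 1.19 to 5.13 CPM in the 4 libraries.

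In the remaining lists few genes passed. Of 11 splicing and RNA-binding proteins HNRNPU rose (log2 1.17 ± 0.31, SE), HNRNPA2B1 fell (-0.58 ± 0.15) and LUC7L3 fell (-2.55 ± 0.25), with a list median of 0.04. The end proposed for PNN was also lower (log2 -2.10), but its name failed the spacing check and it is not counted. HNRNPU was not called without either STAU1 replicate, without GFP IP replicate 2 or with thinned STAU1 libraries, and HNRNPA2B1 was not called when any one library was left out. Of 7 glycolytic enzymes GAPDH fell (-0.65 ± 0.12) and none rose, with a median of -0.30. None of 9 cytoskeletal genes passed, and their changes ran from -0.63 for TMSB10 to 0.42 for TUBA1B, although with library totals, filterByExpr or DESeq2 1 of them was called higher, and without GFP IP replicate 1 2 were called lower. Over the 10 lists 89 of 101 genes had a named and tested end, of which 10 rose, 11 fell and 68 did not pass, with a median log2 change of -0.10. Over all sites tested 5.24% were higher and 4.76% lower. Calls were more frequent at abundant sites, and most list genes were read at such ends. Of the 4195 tested sites with an average log2 CPM of at least 5, 534 were higher and 613 lower. The list counts are thus no sign of enrichment.

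**Figure D3:**
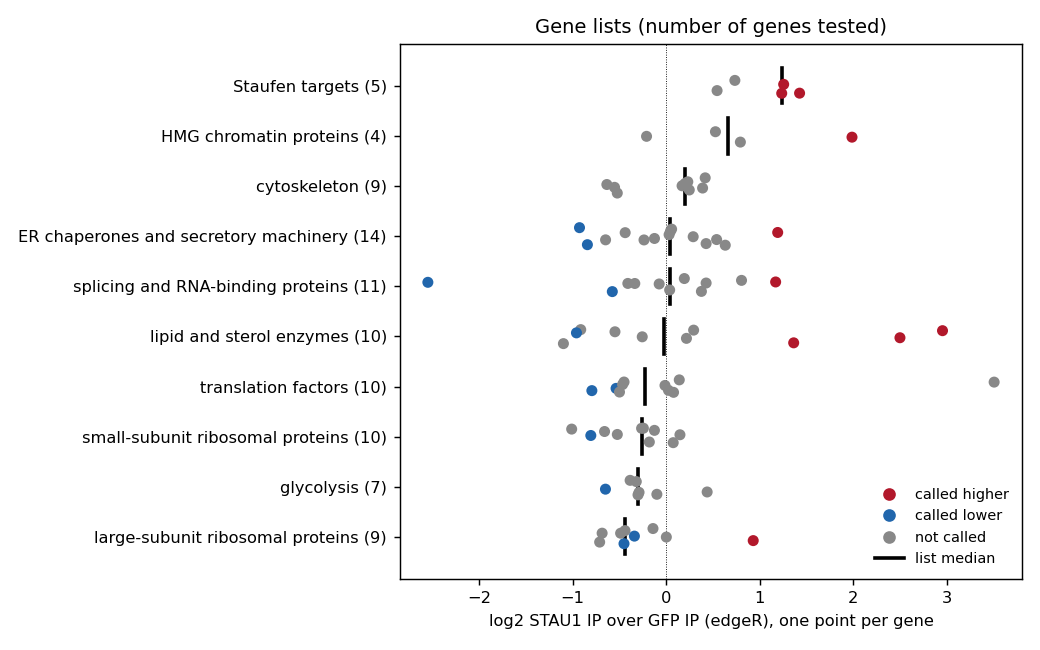
Log2 change of STAU1 IP over GFP IP for each tested gene of the 10 lists (horizontal axis), in red where called higher, in blue where called lower and in grey where not called, with a black bar at the list median. The Staufen targets plotted lie entirely to the right of 0, and the ribosomal protein lists lie mostly to its left. Ends whose gene names were not kept are not plotted, among them the one proposed for JUN (log2 -0.54).

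Further abundant ends that rose, chosen here after their values were seen, belonged to genes of several functions. CDIPT, the phosphatidylinositol synthase, had 7125 and 5749 CPM with STAU1 against 2960 and 2702 with GFP (log2 1.18 ± 0.13, SE). SESN2, a stress-induced inhibitor of mTORC1 signalling, had 2503 and 2197 CPM against 837 and 880 (log2 1.45 ± 0.14). ARHGDIA had 1774 and 1773 CPM against 642 and 716 (log2 1.39 ± 0.14). VHL, the part of a ubiquitin ligase that binds HIF1A, rose at all 3 of its tested ends, by 1.42 to 1.97 on the log2 scale, although without STAU1 IP replicate 1 the main end alone was called. The transcription factor SOX12 rose by 1.70 ± 0.18 at its main end, the growth factor HDGF by 1.52 ± 0.19, the immune ligand CD276 by 1.61 ± 0.21 and the centromere protein CENPB by 1.31 ± 0.19. The apoptosis effector BAK1 rose by 1.99 ± 0.22 and the sialyltransferase ST6GALNAC4 by 2.08 ± 0.18.

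Among the ends that were lower with STAU1, the highest level in the GFP libraries was that of XIST, the long noncoding RNA that coats the inactive X chromosome. Its main end, at chromosome X, minus strand, position 73040495, had 11377 and 10984 CPM in the STAU1 libraries and 30520 and 29826 in the GFP libraries. The log2 change was -1.43 ± 0.09 (SE; Benjamini-Hochberg adjusted p = 8.84e-08 from edgeR's quasi-likelihood test), with groups far apart and replicates close together. Of 13 tested XIST ends 8 fell and none rose, and their changes ran from -2.94 to -0.92. The calls of 3 of these 8 ends were lost without STAU1 IP replicate 1, and 2 of them also without STAU1 IP replicate 2 or GFP IP replicate 2. Both pull-downs held more of the main end than their inputs did, by 1.34 (STAU1) and 2.61 (GFP) on the log2 scale, so the lower level with STAU1 was not a depletion below input.

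Other rule-named ends with small p that fell lay in named genes. HIF1A, the oxygen-regulated transcription factor, had 405 and 330 CPM with STAU1 against 1135 and 1315 with GFP (log2 -1.74 ± 0.16, SE). TPR, a nucleoporin of the nuclear basket, had 78.9 and 61.2 CPM against 401 and 438 (log2 -2.58 ± 0.20). CPSF6, a subunit of the cleavage factor that acts in poly(A) site choice, had 120 and 107 CPM against 415 and 431 (log2 -1.90 ± 0.19). At these ends both GFP libraries lay far above both STAU1 libraries. The naming rule itself asks for groups that do not overlap. ANP32B, a nuclear acidic phosphoprotein, fell by -2.20 ± 0.20 at its main end and by -1.03 ± 0.26 at a second one, and FAM50A, a nuclear protein, by -1.97 ± 0.19. LUC7L3, a splicing factor of the U1 particle, had 43.9 and 29.0 CPM against 210 and 216. An end at the small Cajal body RNA SCARNA22, which lies inside the gene NSD2, fell by -2.29 ± 0.20. ANP32B's second end had an adjusted p of 0.0192 (edgeR, Benjamini-Hochberg) and was not called without GFP IP replicate 1 or without STAU1 IP replicate 1. The adjusted p-values of the other ends in this group lay between 1.19e-06 and 9.81e-06 by edgeR's quasi-likelihood test with Benjamini-Hochberg adjustment.

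Among the largest decreases, GMNN, the inhibitor of replication licensing geminin, had 13.4 and 16.3 CPM against 75.6 and 80.2 at its distal end (log2 -2.39 ± 0.32, SE). A second GMNN end had a change of -0.38 ± 0.25 that did not pass. GLDC, an enzyme of glycine cleavage, changed by -2.36 ± 0.39. The end of AHSG, the gene of the plasma protein fetuin-A, had 32.8 and 33.0 CPM against 118 and 256, with GFP replicates that differed by more than a factor of 2 (log2 -2.50 ± 0.31).

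At a set of 6 abundant sites with large decreases the STAU1 replicates stood apart, with replicate 2 at least 3 times above replicate 1 at each. None carries a gene name here. The site with the largest decrease, at chromosome 16, minus strand, position 88666317, had 1.87 and 14.1 CPM with STAU1 and 169 and 192 with GFP. Its inputs had 15.3 and 1.31 CPM (STAU1) and 0.42 and 0.98 (GFP), so STAU1 input replicate 1 and STAU1 IP replicate 2 were the higher ones. Its log2 change of -4.50 ± 0.50 was -6.56 without STAU1 IP replicate 2 and -3.71 without replicate 1. Without STAU1 IP replicate 2 the change also moved from -3.74 to -5.78 at chromosome 4, plus strand, position 3424141, from -3.71 to -7.37 at chromosome 12, minus strand, position 129783704, from -3.04 to -4.65 at chromosome 9, plus strand, position 99155411 and from -2.75 to -4.15 at chromosome 19, minus strand, position 18904459. All 6 kept their call without any one library, and at 129783704 it was lost with DESeq2 (Benjamini-Hochberg adjusted p = 0.129). No site called higher and of that abundance had STAU1 replicates so far apart.

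Further abundant ends that fell, also chosen after their values were seen, included ALYREF, an mRNA export factor (log2 -1.39 ± 0.21, SE), YWHAH, a 14-3-3 protein (-1.37 ± 0.16), TCOF1, a nucleolar protein of ribosome biogenesis (-1.82 ± 0.19), and CHCHD2, a mitochondrial protein (-1.76 ± 0.19). MAN2C1, a cytosolic mannosidase, had 1302 and 1172 CPM with STAU1 against 2848 and 2466 with GFP. UQCR10, a subunit of respiratory complex III, had 1309 and 964 CPM against 2680 and 2358. The seryl-tRNA synthetase SARS1 fell by -0.98 ± 0.15 at its main end.

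The inputs, which share no library with this comparison, showed whether the same ends differed in the cells. STAU1 input over GFP input had a median log2 change of 0.06 at the 992 higher sites, 0.03 at the 902 lower sites and -0.03 over all sites tested. By edgeR's quasi-likelihood test 1 of the 18936 sites was higher in the STAU1 input (0.00528%) and none was lower, and that site was the STAU1 end at 47732337. Input changes over 0.5 of the direct change, in its direction, were found at 79 of the higher and 35 of the lower sites, and at 5259 of all 18936. Called sites were picked for large direct changes, which by itself lowers their counts. RASSF1 had an input log2 change of 1.37 that did not pass (Benjamini-Hochberg adjusted p = 0.68 from edgeR's quasi-likelihood test). An input difference that did not pass is thus not shown to be absent.

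Each pull-down was also set beside its own input. These ratios use the same pull-down libraries that chose the sites, so they are a description and no test. At the higher sites the median log2 ratio was 1.05 for STAU1 IP over its input and -0.62 for GFP IP over its input. At the lower sites it was -0.36 for STAU1 and 0.99 for GFP, and over all sites tested 0.14 and -0.02. HMGA1 had ratios of 1.28 and -0.61, XBP1 of 0.95 and -0.94, and SEC61A1 of 1.16 and 0.07. HIF1A had -0.37 and 1.44, and TPR had 0.06 and 2.83. The lower sites thus had, at the median, a larger share of the GFP pull-down than of its input.

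**Figure D4:**
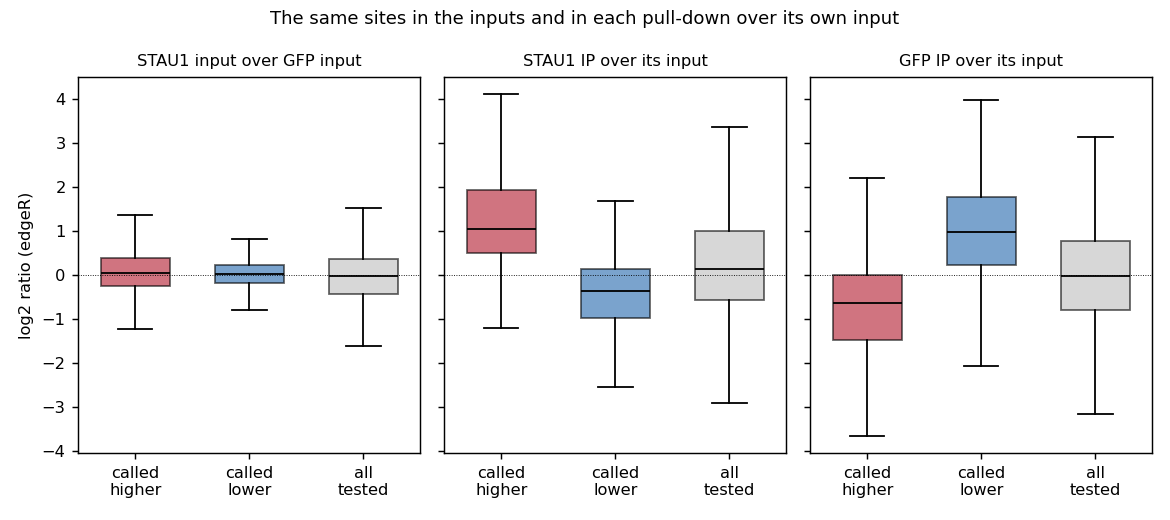
Log2 ratios (vertical axis) of STAU1 input over GFP input, STAU1 IP over its input and GFP IP over its input, for the sites called higher, called lower and all sites tested. Boxes span the quartiles with the median as a line and whiskers reach to 1.5 times the box; the input medians lie near 0 in all 3 sets.

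In wild-type cells the polysome-to-cytoplasm ratio could be read at 463 of the higher and 467 of the lower sites, from 1 library of each fraction and so with no test. Its median log2 value was 0.04 at the higher sites, -0.35 at the lower sites and -0.03 at all 4789 matched sites. In STAU1-knockout cells, over the 505 higher, 500 lower and 5506 matched sites of those libraries, the medians were 0.01, -0.21 and -0.01. Among the named ends that fell, TCOF1 (-2.05), MAN2C1 (-1.31) and CPSF6 (-1.46) had low ratios in wild-type cells, and GMNN (1.01) a high one.

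Sites were next split by their place among their neighbours. Sites no more than 5000 nt apart on a strand were joined to a run, which stands in for the ends of a transcript but can also join neighbouring genes. Of 3332 most distal sites of a run, 239 were higher (7.17%) and 118 lower (3.54%), with a median log2 change of 0.24. Of the 3332 most proximal sites 119 were higher (3.57%) and 174 lower (5.22%), with a median of 0.01. The 1746 sites between them had 118 higher (6.76%) and 67 lower (3.84%) with a median of 0.28, above that of the most distal sites. The called shares thus followed one order from proximal to distal, and the medians did not. With library totals more of the proximal sites were higher than lower (155 against 125), and likewise with filterByExpr (132 against 105). The 9371 sites alone in their run had 497 higher and 505 lower and a median of 0.12.

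Summed over runs, 1047 of 13989 runs were higher (7.48%) and 941 were lower (6.73%) by edgeR's quasi-likelihood test. Without GFP IP replicate 1 the counts were 634 and 593. Of 3690 runs with several tested sites, 73 had at least 2 higher sites, 31 had at least 2 lower ones, and 24 had sites called in both directions. The XIST run held 17 tested sites, 11 of them lower, and its summed level was lower by a log2 change of -1.45. HMGA1, MCRIP1, GDPD1, LIMD1, CRCP, TPR and HIF1A were again among the runs that the naming rule picks.

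Whether the longer and the shorter isoform differed was asked in 3276 pairs, the 2 sites with the most reads in each run. The distal share was higher with STAU1 in 37 pairs (1.13%) and lower in 31 (0.946%) by edgeR's quasi-likelihood test. The counts rested on the choice of pairs: edgeR called 0 and 0 when the 2 outermost sites of a run were paired or when the minimum was 5 reads. At an unadjusted p under 0.05 these settings gave 302 and 201, and 301 and 229, and no other tool was run on pairs. The called counts were 97 and 62 with 30 reads, and with GFP IP replicate 1 left out 15 pairs were lower. Among the 2111 pairs at most 3000 nt apart, a limit chosen after seeing that longer runs join genes, 19 were higher and 3 lower. The median distance was 2138 nt in pairs with a higher and 6168 nt in pairs with a lower distal share, and 1770 nt in all pairs.

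PSMB2, a subunit of the proteasome, had the clearest shift within a named gene. Its distal end, 1318 nt downstream of the proximal one, held 72.5 and 73.2% of the reads of the pair with STAU1 and 29.6 and 22.9% with GFP. The distal end itself rose by 1.93 ± 0.27 (log2, SE) and the proximal end fell by -0.93 ± 0.23, a call that was lost without GFP IP replicate 1 or STAU1 IP replicate 2. A pair at the ubiquitin gene UBB had the same form. Its distal end, 1536 nt downstream, had 820 and 850 reads beside 5392 and 5213 at the main end with STAU1. With GFP the reads were 39 and 60 beside 1854 and 1966. The distal end rose by 1.74 ± 0.27 while the main end fell by -0.86 ± 0.14. The name of the distal end is less certain, since 3 neighbouring ends matched its spacing, the minimum, against 25 for the main end. Whether it belongs to a UBB transcript was not tested. For CARHSP1, a cold-shock-domain protein that binds RNA, the end held 99.2 and 99.7% of the reads of its pair against 91.1 and 94.7%. That pair rested on 16, 7, 12 and 6 proximal reads, and its proximal end carries no gene name here. The log2 changes of the distal over the proximal end were 2.91 ± 0.47 in PSMB2, 2.63 ± 0.43 in UBB and 3.89 ± 0.69 in CARHSP1 (SE; Benjamini-Hochberg adjusted p = 0.00277, 0.00311 and 0.00798 from edgeR's quasi-likelihood test).

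The other pairs with small p joined ends of different genes or held ends without a gene name. In one, HDGF was the proximal end and MRPL24, a mitochondrial ribosomal protein, the distal one, with a distal share of 13.3 and 9.87% with STAU1 against 39.5 and 36.0% with GFP; HDGF rose and MRPL24 did not pass. In another, ST6GALNAC6 was joined to an unnamed end 17479 nt away, with a distal share of 19.2 and 20.6% against 76.1 and 66.0%. In the pairs with the largest fitted changes one end had no read in the GFP libraries. The pair at 50050303 and 50041045 on the minus strand of chromosome 14, for example, had distal shares of 18.1 and 12.9% with STAU1 and 0 of 193 and 0 of 214 reads with GFP, which allows up to 1.55 and 1.40%.

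**Figure D5:**
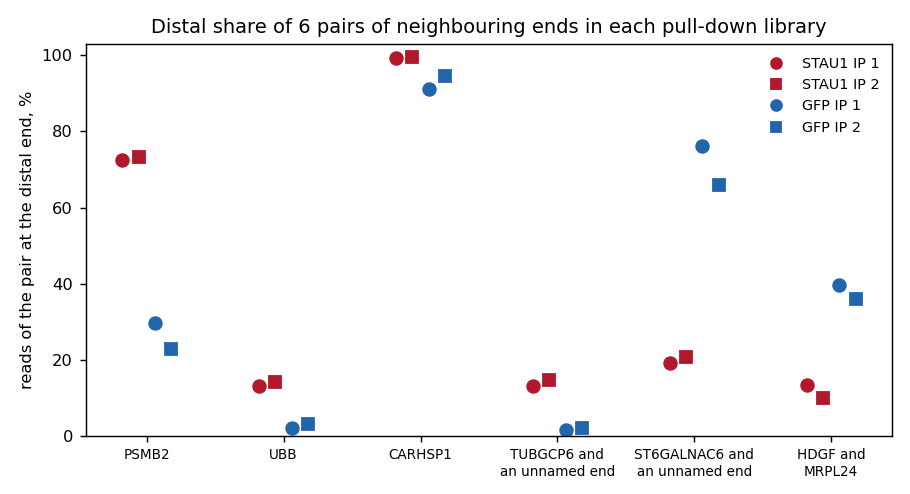
Share of a pair's reads at its distal end, in percent, in each STAU1 IP (red) and GFP IP (blue) library for 6 pairs of neighbouring ends. In the PSMB2, UBB, CARHSP1 and TUBGCP6 pairs both STAU1 libraries lie above both GFP libraries, and in the ST6GALNAC6 and HDGF pairs they lie below.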

How the data were processed

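HEK293T RNA was sequenced by 3'READS+ in 12 libraries, of which the 4 pull-downs (STAU1 IP and GFP IP, 2 each) made the comparison; the 4 inputs and the wild-type and knockout fractions served as separate readouts. The submitters' processing notes name STAR and the build hg19. Versions, settings, site clustering and the handling of reads with several matches are not given in the sources used here. What the authors deposited are raw counts of reads at each poly(A) site, not normalized, per the file headers.

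Sites with a mean of at least 10 reads over the 4 libraries went into a quasi-likelihood fit with a group term (edgeR 4.0.16, R 4.3.3), with TMM scaling, 2 residual degrees of freedom, Benjamini-Hochberg adjustment over all 18936 sites, threshold 0.05. Neighbouring sites of one strand up to 5000 nt apart formed a run (autosomes and X). Pairs, at least 100 nt apart, were fitted with library and site terms and a site-by-group interaction. SE is the log2 change over the square root of the F statistic. Polysome ratios came from sites matched within 24 nt with at least 50 reads in both libraries. The fits were tested on simulated data. DESeq2 1.42.0, other scalings and filters, a replicate block, thinned STAU1 libraries and leaving out each library were the alternatives.

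Rule-named sites are, among called sites with an average log2 CPM of at least 5 and groups that do not overlap, the 15 largest changes and the 10 smallest p-values in each direction (5 each for runs and pairs), with XBP1, HMGA1 and STAU1 in addition. Of the 46 sites that the rule picked without these additions, 28 carry a gene name. No gene stands beside a site in the count table, and no hg19 annotation was used here. Names were given by hand from hg19 gene ends known to the kilobase, and kept where the gene's chromosome, strand and spacing to at least 3 neighbouring ends matched the RefSeq gene table of another build, whose coordinates were neither printed nor converted. That spacing was also in view when some names were proposed, so it is not an independent test of them. The check took the best match over all places within a gene, so it does not show that a site is the gene's end. How often it would pass a wrong name was not tested. A list gene was read at its end with the most reads. The members and the lists were chosen with earlier results of these data known. Counting floors cover counting error only, since reads were counted without molecular identifiers. Some genes of the lists are counted but not reported here by name.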

Additional observations from a re-analysis of the deposited data

How the results depend on the processing

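With a minimum mean of 5 reads in place of 10, 581 sites were higher and 390 lower, with filterByExpr 546 were lower, and with STAU1 libraries thinned to the depth of the deeper GFP library 586 were higher and 577 lower. Leaving out one library at a time gave 316 to 900 higher and 322 to 624 lower sites, 634 to 924 higher and 593 to 910 lower runs, and 27 to 55 pairs with a higher and 15 to 38 with a lower distal share. Pairs of the 2 outermost sites gave 0 and 0, a minimum of 5 reads likewise 0 and 0 (edgeR); the counts were 97 and 62 with 30 reads, and 19 and 3 within 3000 nt.

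The replicate numbers did not pair the libraries by the data: the correlation of the differences between replicates 1 and 2 in the 2 pull-downs was 0.065. With the replicate number as a block, 1415 sites were higher and 1261 lower, 1183 and 1103 runs, and 97 and 62 pairs.

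Of 49 sites, the 46 picked by the naming rule with XBP1 and 2 STAU1 ends in addition, none changed direction under any of the alternatives run. With DESeq2 2 of them lost their call, some lost it when a STAU1 IP replicate was left out, and none did under the other settings. The second STAU1 end, at 47734604, was among those lost without STAU1 IP replicate 1. Of all 114 called sites that carry a gene name, list genes included, 91 kept their call under every alternative run that gave them an adjusted p and 23 lost it under at least 1. Leaving out one library ended 9 to 18 of these calls, a minimum of 5 reads 13, filterByExpr 7, all 8 libraries 7, thinning 5, library totals 3 and DESeq2 1. The lower depth of the GFP libraries limits what can be seen at sites of few reads: 447 tested sites had no GFP read. Scaling by library totals moved the median log2 change of all sites from 0.12 to 0.22.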
